A study of Mus musculus with 2 samples.

Results

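The genes described here are the Usp genes, which encode ubiquitin-specific proteases, and the Otud genes, which encode proteases with an ovarian tumour (OTU) domain, chosen by symbol from the authors' deposited gene table with chromosome Y and pseudogenes left out. The table pairs each RIP peak with Ensembl genes that it overlaps or lies nearest to, and it held 40 such genes among 11969. A peak overlapped 29 of the 40, and the other 11 were paired with peaks outside their bodies. The reference annotation (GRCm38.p6, the same assembly as mm10) lists 63 protein-coding genes with these symbols outside chromosome Y, so 23 had no row in the table. One symbol that the rule takes, Usp6nl, encodes a GTPase-activating protein of membrane traffic and no protease.

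The series compared RNA that came down with an antibody against the RNA-binding protein ELAVL2 (the ELAVL2 RIP, 1 sample) with RNA of the same lysate (the input, 1 sample, 5% of the starting material). Both came from newborn (P0) mouse ovaries, 100 of which were homogenised together, and the labels give no strain, genotype or treatment for either arm. The RNA was amplified before libraries were made. No control pulldown is among the samples, so binding to ELAVL2 and retention on the beads by another route cannot be told apart. Of 172711531 aligned RIP tags and 210270620 aligned input tags, the peak caller kept 13787676 and 19479946 after reducing tags at the same position and strand to 1. There was 1 sample per arm, with its lanes pooled, so nothing below was checked across replicates and no test between the arms was possible. In whole ovary, fewer cells of a type and less RNA per cell cannot be told apart either. Of 9 oocyte markers 4 were overlapped by a peak, Dazl, Ddx4, Kit and Lhx8, and Figla, Gdf9, Nobox, Sohlh1 and Zp3 had no row. Median length was 39.3 kb for those 4 and 8.52 kb for the 9. Of 22 markers of somatic and blood cells 3 were overlapped, Fshr, Maf and Tek. Over all protein-coding genes the share was 23.7%, and a list of enriched regions does not measure the make-up of the tissue.

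Ubiquitin is attached to proteins by a cascade of activating, conjugating and ligating enzymes, and deubiquitinases remove it again. By trimming chains they can spare a protein from the proteasome, change its traffic or edit a histone mark, and they also recycle ubiquitin. Proteins of the ELAVL (Hu) family bind U-rich and AU-rich stretches, mostly in the 3' parts of messenger RNAs, and affect how stable those messages are and how well they are translated. In the newborn ovary oocytes are being enclosed in primordial follicles, and oocytes store many messages in a translationally silent state.

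Taking the 63 genes of the reference, 29 (46.0%, 33.4 to 59.1; intervals here are 95% binomial ones for counting error alone) were overlapped by a peak, where 23.7% of 21644 protein-coding genes were. The count was 17 at a -log10 q of at least 5, where 14.1% of protein-coding genes were overlapped, and 7 from peaks paired with exactly 1 gene. For that last setting the share of all protein-coding genes was not computed, so the 7 have no share to be set against. The members are long genes: their median length was 46.0 kb, against 17.3 kb over all protein-coding genes, and long genes held peaks more often. Among genes under 30 kb, 6 of 24 members (25.0%, 9.77 to 46.7) were overlapped, against 13.6% of all genes of that length. Between 30 and 100 kb the shares were 15 of 29 (51.7%, 32.5 to 70.6) and 36.8%. Over 100 kb they were 8 of 10 (80.0%, 44.4 to 97.5) and 55.0%. The members had the higher share in each of the 3 classes, and in each their interval held the share of all genes. RNA levels of the genes that lack a peak were not analysed here, and the part of expression in these shares was not tested.

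Groups of enzymes that put ubiquitin on were set beside these. Ubiquitin-conjugating and F-box genes were overlapped in 52 of 115 cases (45.2%, 35.9 to 54.8), with a median length of 24.9 kb, and RING and TRIM ligase genes in 50 of 151 (33.1%, 25.7 to 41.2), with a median length of 18.8 kb. The interval of the Usp and Otud genes overlapped both of these. By length class, from short to long, the first group stood at 33.8%, 57.5% and 85.7% and the second at 24.5% and 51.5%, with 8 of 16 genes in the longest class, against 13.6%, 36.8% and 55.0% of all protein-coding genes.

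**Figure D1:**
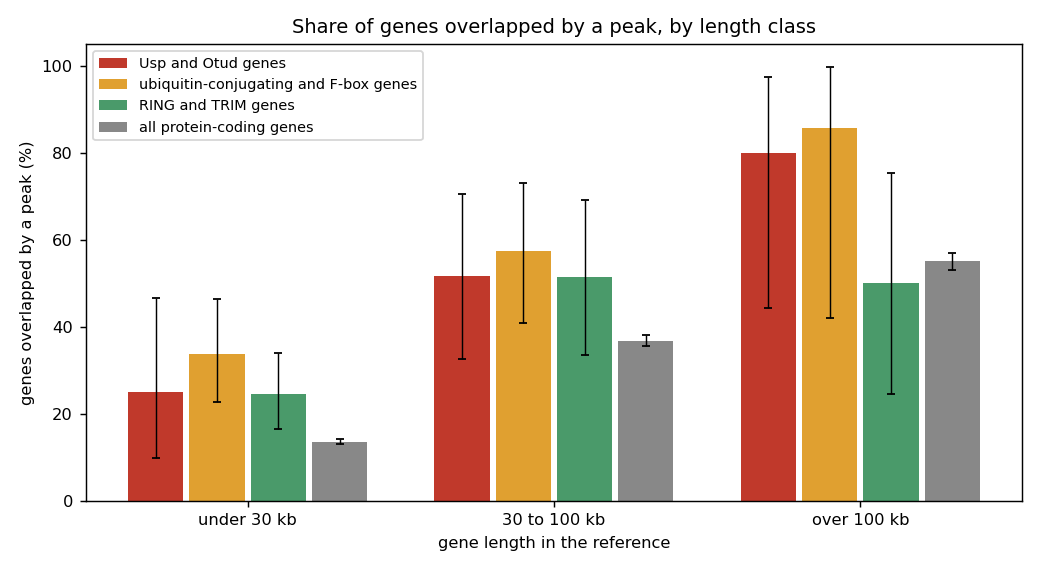
Share of genes overlapped by a RIP peak (%, y axis) in 3 classes of gene length (x axis), for the Usp and Otud genes, 2 other groups of ubiquitin enzymes chosen by symbol and all protein-coding genes. Bars are shares and lines are exact binomial 95% intervals that cover counting only; in the class over 100 kb the members stand at 80.0% and all genes at 55.0%.

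The 29 genes were overlapped by 143 peaks, which made 144 pairs of peak and gene because 1 peak lay in both Usp8 and Usp50. The fold enrichment of each peak is the authors' value for RIP pileup over the local input level, and the pileup is the number of overlapping RIP tags at the summit. Over the 144 pairs the median fold was 2.89 (1.75 to 11.0), the median pileup 32.5 and the median input level 10.2, where all 23221 overlapping pairs of the series had medians of 3.24, 28 and 7.79. The peaks were unevenly spread over the genes. Otud4 held 16, Usp37 15, Usp2 13, Usp31 and Usp32 11 each and Usp45 10, while 11 genes held 1. The 12 genes with 5 or more peaks held 115 of the 143. Such genes were 41.4% of the overlapped members and 30.8% of all overlapped protein-coding genes. The share was 34.6% for ubiquitin-conjugating and F-box genes, 44.0% for RING and TRIM genes and 56.25% for deubiquitinases of other families. It was thus not particular to the members.

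**Figure D2:**
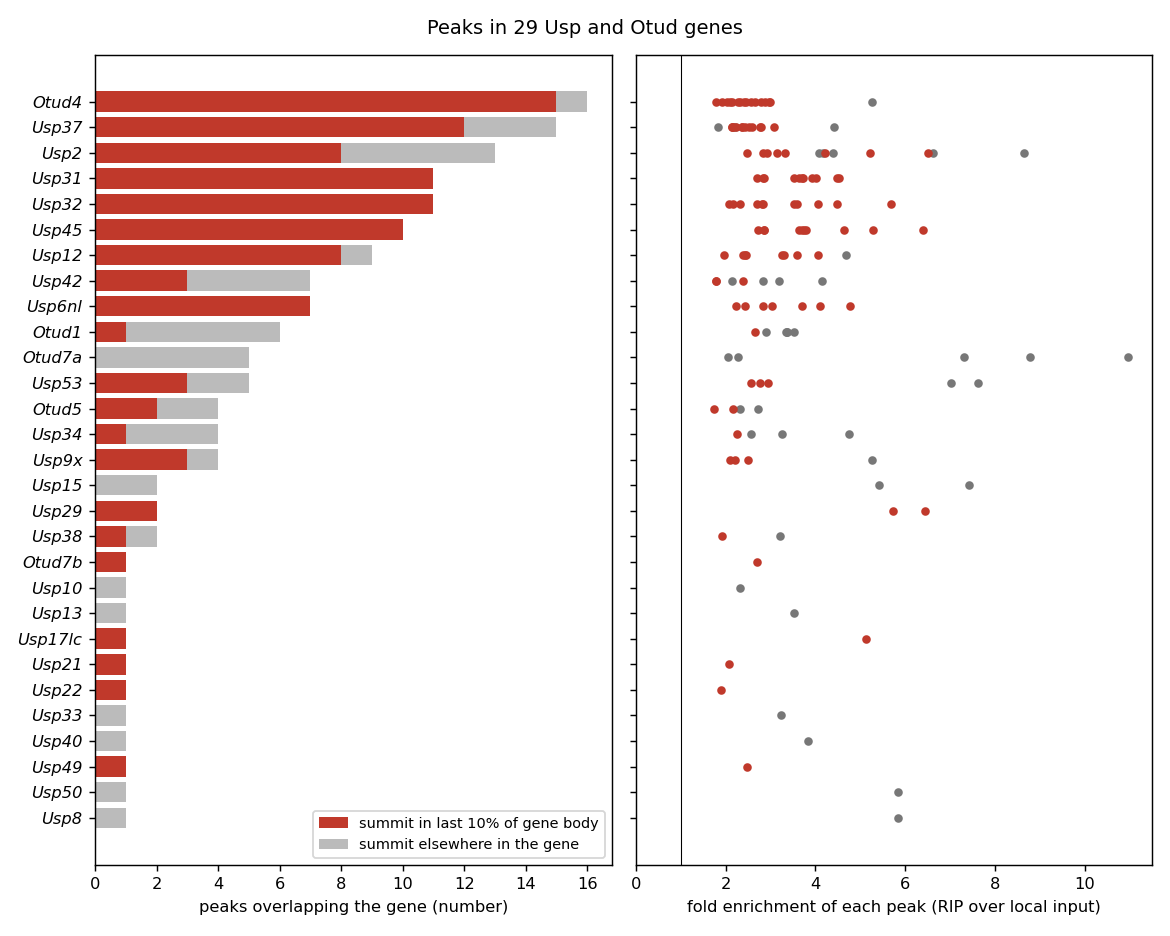
Left, number of peaks overlapping each of the 29 Usp and Otud genes, split by whether the summit lay in the last 10% of the gene body (red) or elsewhere (grey). Right, fold enrichment of each peak (RIP over local input, linear axis), 1 point per peak in the same colours; the highest fold is 11.0 in Otud7a, and the many red points of Otud4 and Usp37 lie near or below 3.

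Most of these peaks sat at the 3' end. Summits of 103 of the 144 pairs (71.5%, 63.4 to 78.7) fell into the final 10% of the body and those of 3 into the first 10%. With the 19 peaks that the table pairs with exactly 1 gene, which lie in 7 members, the share was 21.1%. The 19 take in all 6 peaks of Otud1 and all 7 of Usp42. None of them lies in Otud4, Usp37, Usp31, Usp32, Usp45, Usp2 or Usp6nl. The share of all pairs under that setting was not computed. The final 10% took 45.1% of all 23221 pairs, 50.4% of the 254 pairs of ubiquitin-conjugating and F-box genes, 50.4% of the 246 pairs of RING and TRIM genes and 55.6% of the 108 pairs of other deubiquitinases. Neighbouring peaks of 1 transcript are not independent, and the interval does not allow for that. The mean share of a gene's own peaks in the last 10% was 56.7% over the 29 members and 47.9% over 5125 overlapped protein-coding genes. Of the overlapped genes, 21 of 29 members (72.4%) had a peak there, against 65.6% of protein-coding ones, so the contrast was smaller by gene than by pair. The share was 73.1% for ubiquitin-conjugating and F-box genes, 62.0% for RING and TRIM genes and 81.25% for other deubiquitinases. Of all genes, overlapped or not, members with a peak there were 33.3% of the 63, against 15.5% of protein-coding genes. Such a peak was held by 38 of 115 ubiquitin-conjugating and F-box genes, 31 of 151 RING and TRIM genes and 13 of 33 other deubiquitinases. Genes with 5 or more peaks in the last 10% numbered 8 of 63 (12.7%), against 3.0%. For the same 3 groups this last share was 7.83%, 7.28% and 12.1%. Neither share was thus particular to the members, and neither was matched for gene length. The 8 members held 82 of the 103 pairs, and they are Otud4, Usp37, Usp31, Usp32, Usp45, Usp12, Usp2 and Usp6nl.

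The input level moved with the position. In the last 10% of the members' bodies the median input level was 12.0 and the median pileup 38, against 4.95 and 21 in the rest of the bodies, and the median fold was 2.78 against 3.84. The same medians over all genes were 11.3, 34 and 2.84 in the last 10% and 4.95, 22 and 3.73 in the rest. Peaks of the members at the 3' end thus had folds close to those of other genes there. The part of the input level in these positions was not tested.

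Usp32 had the peak with the highest -log10 q of the family. It encodes a membrane-bound protease of the endosomal and Golgi system (chromosome 11, 84984442 to 85140161, ENSMUSG00000000804). Its last peak, at 84984467 to 84984902 and 24 bp from the 3' end of the body, had a pileup of 65 in the RIP over an input level of 10.6. The fold was 5.68 and the -log10 q 22.6, which ranked 12 among the best values of the 6158 overlapped genes. Of its 11 peaks, 9 lay within 5 kb of the 3' end, with folds between 2.08 and 5.68, and the others lay further upstream but within the last 10%. The next peaks away from the end had pileups of 50, 47, 48, 51, 34, 26, 29 and 26, so none of them reached the 65 of the last one.

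Usp2 had the largest fold among peaks of at least 20 tags. The gene encodes a protease that acts on cyclin D1 and MDM2 and takes part in circadian regulation (chromosome 9, 44067021 to 44095627, ENSMUSG00000032010). It had 13 peaks. The peak with the largest fold, 8.64, lay inside the body at 44085244 to 44085339, 10320 bp before the 3' end at its summit, with a pileup of 26 over an input level of 2.12. Its highest -log10 q was 18.9, at a peak 1686 bp before the 3' end with a pileup of 47 over an input level of 6.37 and a fold of 6.51, and another, with its summit 924 bp before the end, reached a pileup of 56 over 9.91 and a -log10 q of 17.9. In the authors' table all 13 also overlapped Rnf26, a gene on the other strand whose body there spans 47.2 kb. In the reference Rnf26 is 2.27 kb long and lies downstream of Usp2 (44110781 to 44113051), so that none of the 13 peaks falls inside it.

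One Usp2 peak, at 44085007 to 44085062 with a pileup of 22 and a fold of 4.38, lies inside a window of the RefSeq promoter table (GRCm38.p6). That window belongs to another gene, Gm39325, and the peak carries no strand by which to assign it. This peak was the 1 member peak whose bases could be read. Its summit is 49 bp beyond the end of the promoter window of Usp2 itself, which reaches 50 bases into the gene from an internal start site. Its first 30 bases, chr9:44085007-44085036 on the plus strand, the strand of Usp2, are shown to set this peak against the U-rich binding that the family is known for, with the base at the summit in capitals:
Usp2 peak: ttgaggcggagAagcgcgcgctgggccccg
The whole peak of 56 bases was G and C at 40 positions (71.4%) and T at 8 (14.3%). Neither strand held the motif TTTTTTT, which 6.67% of the 45 peaks lying wholly inside such a window held and 11.7% of the 32851 windows, which are longer. Nor did either strand hold TTTATTT, found in 4.44% of those peaks and 9.61% of windows. The shorter motif ATTTA was absent too and was found in 6.67% of those peaks and 34.1% of windows. No other Usp2 peak was read. The share of G and C is not given for the other peaks or the windows. This peak was readable only because it lay in a promoter window, so it does not speak for the members' other peaks.

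Otud4 and Usp37 held the longest rows of peaks, with moderate folds over the last few kilobases. Otud4, an OTU protease with a part in DNA alkylation repair (chromosome 8, 79639618 to 79677724, ENSMUSG00000036990), had 15 of its 16 peaks in a run at the 3' end, covering 1497 of 3205 bp. Their pileup lay between 25 and 67, over input levels between 7.79 and 32.6, and their folds between 1.79 and 2.98. The run was thus broad and shallow, with the highest pileup, 67 over an input level of 22.6, lying 506 bp before the end. Usp37, which acts on cyclin A at the start of DNA replication (chromosome 1, 74435511 to 74544284, ENSMUSG00000033364), had 12 of 15 peaks in a run of 3140 bp, of which 1807 bp were covered. Pileups there ranged from 29 to 62 and folds from 2.14 to 3.09. Its other 3 peaks lay in the 5' part, where the body also holds the oppositely oriented Rqcd1, a subunit gene of the CCR4-NOT deadenylase. The peaks at 74530528 to 74530594 and 74530676 to 74530784 lay next to the 3' end of Rqcd1, at 74530842. No strand is given for the peaks by which to assign those 3.

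In Usp31, Usp45, Usp12 and Usp6nl the largest fold of the run was higher than in Otud4 and Usp37, and its highest input level was lower. Usp31, a large protease gene (chromosome 7, 121642021 to 121707253, ENSMUSG00000063317), held all 11 of its peaks in the last 10%, with folds of 2.70 to 4.53. Its last peak, 121642059 to 121642601, was 543 bp long with a pileup of 53 over an input level of 12.7 and a -log10 q of 12.1. Usp45, a protease of DNA excision repair (chromosome 4, 21767156 to 21837872, ENSMUSG00000040455), had 10 peaks in 3103 bp with pileups from 13 to 35 over input levels from 1.66 to 8.49. Its largest fold, 6.40, came at a pileup of 19 over an input level of 2.12, and at 20 tags or more the largest was 4.63. Usp12, a partner of the WD-repeat protein WDR48 (chromosome 5, 146734809 to 146795006, ENSMUSG00000029640), had 8 of 9 peaks in 2493 bp. The last of them, 47 bp from the end, had a pileup of 52 over an input level of 12.0, giving a fold of 4.07 with a -log10 q at 12.4, while its remaining peak, close to the 5' end, rested on 7 tags. Usp6nl (chromosome 2, 6322667 to 6446390, ENSMUSG00000039046), the GTPase-activating protein gene, had its 7 peaks in 2371 bp, the best with a pileup of 41 over 7.79 and a fold of 4.78.

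**Figure D3:**
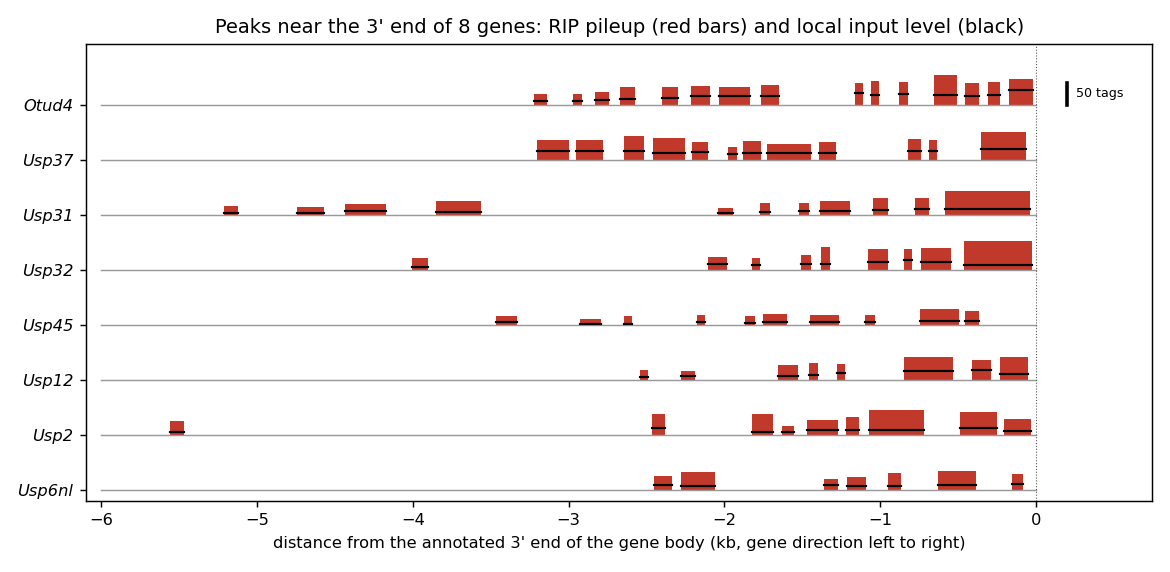
Peaks within 6 kb of the annotated 3' end (x axis, kb, dotted line at the end) in the 8 genes with 5 or more peaks in the last 10% of the body. Red bars span each peak and their height is its RIP pileup at the summit, black lines give its local input level, and the scale bar stands for 50 tags; the tallest bars, 67 tags in Otud4 and 65 in Usp32, lie within the last kilobase.

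Some members held peaks inside the body with a high fold over almost no input. Otud7a, the gene of an OTU protease for K11-linked chains (chromosome 7, 63444751 to 63759028, ENSMUSG00000033510), had none of its 5 peaks at the 3' end. In the middle of its 314 kb body 3 neighbouring peaks had pileups of 11, 14 and 9 over the genome-wide background level of 0.369, with folds of 8.77, 11.0 and 7.31. The middle one, 63571889 to 63572021, had the largest fold of the family, 60th among the 6158 overlapped genes. The other 2 Otud7a peaks lay nearer the 5' end and had pileups of 62 and 56 over input levels of 29.7 and 24.1 and folds of 2.05 and 2.27. In Usp53, a gene of cell junctions (ENSMUSG00000039701), 2 mid-body peaks had folds of 7.03 and 7.61 at pileups of 11 and 12 over an input level of 0.708, and 3 peaks at the 3' end had folds from 2.57 to 2.95 at pileups of 27 to 35. Usp9x, the X-linked relative of Drosophila fat facets (ENSMUSG00000031010), likewise had 1 peak of 8 tags with a fold of 5.27 near its start and 3 peaks of 45 to 50 tags with folds of 2.09 to 2.50 at its end.

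Over the family, 12 pairs had an input level of at most 1 tag (0.708 after scaling). Their folds ran from 4.68 to 11.0 at pileups of 6 to 14, and 2 of the 12 lay in the last 10% of the body, against 101 of the 132 pairs above that level. Such pairs made up 8.33% of the members' pairs, against 12.9% of all overlapping pairs, so they were no more common here. At the lowest level only peaks with a high fold can be called, so folds are not on an equal footing across input levels. With at least 20 tags required, Otud7a kept a best fold of 2.27, Usp53 2.95 and Usp9x 2.50.

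**Figure D4:**
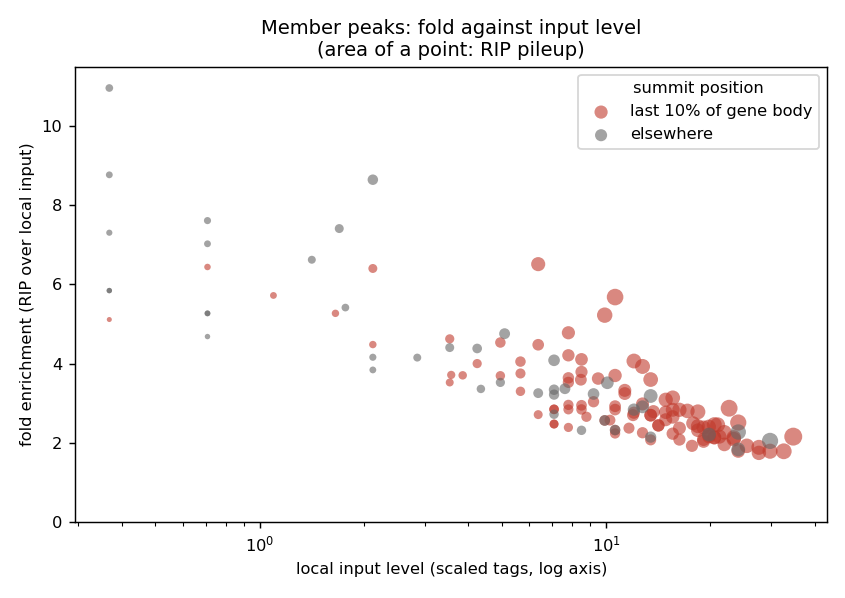
Fold enrichment (y axis) against the local input level (x axis, scaled tags, log axis) of the 144 pairs of peak and member gene, coloured by position, with the area of a point proportional to its RIP pileup. The highest fold, 11.0, is a small point at the lowest input level, while 8.64 in Usp2 stands at an input level of 2.12, and the points of the last 10% crowd at levels near 12.0 with folds near 2.78.

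The groups by role are small, and the interval of each share given for them holds the 23.7% of all protein-coding genes or, for the OTU genes, lies just above it. The Usp genes put in no role group were overlapped in 6 of 9 cases (66.7%, 29.9 to 92.5), with an interval above that share. Their median length was 65.4 kb, in the class where 36.8% of all genes were overlapped. Of 9 proteases of cell cycle, p53 and DNA damage control 4 were overlapped (44.4%, 13.7 to 78.8), with 36 peaks. Beside Usp2 and Usp37 these were Usp42, which acts on p53 (7 peaks, best fold 4.15), and Usp10, a partner of G3BP (1 peak, fold 2.32, which also lay in the predicted gene Gm20388). Usp24 and Usp25 were paired with peaks outside them, and Usp28, Usp47 and Usp48 had no row. Among 9 chromatin proteases 3 were overlapped (33.3%, 7.49 to 70.1), with 3 peaks in all. The peaks of Usp22, the H2B protease of the SAGA complex, Usp21 and Usp49 were single ones with folds of 1.89, 2.08 and 2.48, Usp44 was paired from outside, and Usp3, Usp7, Usp16, Usp27x and Usp51 had no row. Neither of 2 genes of the nucleolus and of splicing, Usp36 and Usp39, had a row.

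Among proteases of developmental signalling, 3 of 5 were overlapped (interval 14.7% to 94.7%), and the median length of the 5 was 92.3 kb, in the class where 36.8% of all genes were. Usp34, which acts on axin in Wnt signalling, had 4 peaks with pileups of 23, 28, 27 and 30 in the direction of the gene and a best fold of 4.76, and 1 of them lay in the last 10% of its 184 kb body. Beside Usp34 and Usp9x, Usp15, a protease of TGF-beta receptor signalling, had 2 peaks in the 5' part of its body with pileups of 19 and 14 and folds of 7.41 and 5.42. Usp11 was paired with a peak inside Cdk16, and Usp4 had no row. Among 7 proteases of membranes and organelles 3 were overlapped (42.9%, 9.90 to 81.6), Usp32 with its run at the 3' end and 2 others with 1 peak each. Usp33, known as a binding partner of VHL, had 1 peak of 32 tags with a fold of 3.23, which also lay in the predicted gene Gm42967, and Usp8, which acts on endosomal receptors, had 1 peak of 7 tags. That peak also fell in the table's body of Usp50 (74.4 kb) but not in the reference body of Usp50 (22.4 kb).

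The OTU genes were overlapped in 5 of 8 cases (62.5%, 24.5 to 91.5), against 23.7% of all protein-coding genes, and held 32 peaks. Otud1, a short gene of 2.83 kb in the table, had 6 peaks between 48% and 93% of its body, with pileups of 17, 26, 28, 38, 39 and 43 in the direction of the gene over input levels of 4.35, 7.08, 7.61, 10.1, 12.7 and 15.6. RIP pileup and input level thus both climbed along these 6 peaks, with folds between 2.66 and 3.52. A further peak beyond the table's end but inside the reference body (3.55 kb) had a pileup of 13 over an input level of 3.54, both lower again, and a fold of 3.08. Otud5, a regulator of TRAF3, had 4 peaks with a best fold of 2.72 and a highest pileup of 76, the highest of the family, over an input level of 34.7. Otud7b, the protease Cezanne, had 1 peak of 38 tags with a fold of 2.70. Otud6a was paired with peaks outside it, and Otud3 and Otud6b had no row.

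The remaining members held 1 or 2 peaks. Usp38 had 2 peaks (best fold 3.22), Usp13 1 (3.53 at a pileup of 20) and Usp40 1 (3.84 at a pileup of 11). Usp29, a paternally expressed imprinted gene, had 2 peaks of 10 and 11 tags with folds of 6.44 and 5.72 that also lay in the imprinted neighbour Zim3 on the other strand. Usp17lc belongs to a multi-copy family, so its single peak of 6 tags cannot be placed with certainty.

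Set groups of close relatives are given side by side. Usp12 had 9 peaks and Usp46 no row. Usp53 had 5 peaks and Usp54 no row, Usp13 had 1 and Usp5 no row, and Usp33 had 1 while Usp20 was paired only with peaks inside Fnbp1. Otud7a had 5 peaks with a best fold of 11.0 and Otud7b 1 with 2.70. Usp22 had 1 peak and Usp27x and Usp51 no row, and Usp25 had peaks only beyond its 3' end and Usp28 no row. None of these differences was tested, and a gene with no row in the table used here is not shown to be unbound.

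Gene bodies differed between the authors' table and the reference, and this changed the peaks of several members. In the reference, the 3' end of Usp15 lies at 123105006 on chromosome 10, against 123113244 in the authors' table, and 8 more peaks fall in that stretch, which the table pairs with Mon2. Their pileups ran from 8 to 48 over input levels of 0.495 to 15.6 with folds of 2.28 to 7.68, so that Usp15 held 10 peaks in its reference body, 8 of them in the last 10%. Usp26, an X-linked gene known for its expression in testis, had 6 peaks between 703 and 2688 bp beyond its end in the table, with pileups of 16 to 32 and folds of 2.85 to 4.74, and 2 of the 6 lay in the reference body. Usp44, a mitotic checkpoint protease, gained 5 peaks that also overlap Metap2, with folds of 2.00 to 3.25. In total 158 peaks lay in the reference bodies of the members, again in 29 genes, with Usp26 and Usp44 among them and Usp17lc and Usp50 not. Otud1 gained 1 peak. Usp42, with a body of 49.4 kb in the reference and 22.0 kb in the table, kept its 7 peaks, with 6 of them in the last 10% of the reference body, against 3 of the table body.

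Of 67 pairs of a member with a peak outside its body in the table, 52 had their peak inside another gene, the 5 of Usp44 that lie in its reference body included. The 17 pairs of Usp14, the protease bound to the proteasome, lay in Rock1, the 8 outside pairs of Usp34 in Xpo1 and the 4 of Usp45 in Ccnc. Usp1, a protease of FANCD2 and PCNA, was also paired only from outside. With nearest genes counted, 40 of the 63 members were in the table, where 32.1% of all protein-coding genes were. Among the 15 pairs outside any gene, a peak 298 bp beyond the end of Usp25 had a pileup of 17 and a fold of 4.26, and a peak 445 bp beyond Usp17le, a multi-copy gene, had a pileup of 15 and a fold of 9.37.

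Deubiquitinases of other families were overlapped in 16 of 33 cases (48.5%, 30.8 to 66.5), close to the 46.0% of the Usp and Otud genes. Of all protein-coding genes, 23.7% were. The median length of the 33 was 30.9 kb, in the class where 36.8% of all genes were overlapped. The interval of the 33 holds that 36.8%. Zranb1, a protease of Wnt signalling, held 16 peaks (best fold 3.64), Alg13, a glycosyltransferase gene with an OTU domain, 12 (5.38), Atxn3, the ataxin-3 gene, 10 (5.73), Zup1 10 (4.96), Cyld, which acts on linear and K63-linked chains, 9 (4.83) and Mindy3 8 (6.61). In Atxn3 10 of 10, in Cyld 8 of 9 and in Zranb1 11 of 16 peaks lay in the last 10%. The counts there were 4 of 8 in Mindy3, 2 of 12 in Alg13 and 1 of 10 in Zup1. The genes Bap1, Psmd14 and Cops5 had no row. Of 11 partners of the members 7 were overlapped (63.6%, 30.8 to 89.1), against 23.7% of all protein-coding genes. The median length of the 11 was 31.7 kb, in the class where 36.8% of all genes were overlapped. Among the 7 were Wdr20 (3 peaks, best fold 3.71) and Gmps (5, 3.19), while Wdr48 had no row. Atxn7 of the SAGA module had 10 peaks, and 7.61 was its largest fold, at 12 tags. Among genes of activating enzymes, Uba6 had 8 peaks (best fold 3.64), and Uba2 and Uba3 had 1 each (3.30 and 5.02).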

How the data were processed

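The 2 samples and their protocols are given in the report. The submitters' processing notes name the genome build mm10, the aligner TopHat2 (2.0.8b) and the peak caller MACS2 (2.1.0.20140616), and also CASAVA (1.8.2) and FastQC (0.11.2). Per the file headers, 3 RIP lanes and 3 input lanes were pooled, tags were extended to 50 bp and peaks were called at a q cutoff of 0.05. Each peak's pileup (a signal), fold enrichment (a ratio with a pseudocount of 1), -log10 p and -log10 q are deposited values made by the authors. The caller takes no account of strand or splicing, and pileups cannot exceed 100. The sources used here do not give how peaks were paired with genes; 42176 exact repeats of 85730 rows were dropped.

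Pileup and fold together gave the input level, which is the local background of the caller and no count of input tags. Positions run along whole gene bodies, since exons were not used here. Symbols were matched to the protein-coding reference directly or by an older symbol of 1 gene. Calculations ran in Python 3.11.15 with pandas 2.3.3 and numpy 2.4.6, intervals in scipy 1.17.1 and plots in matplotlib 3.10.9. The counting steps were tested on simulated peaks. Members and lists were chosen with earlier results of these data known. Every overlapped member is named; fuller accounts go to the 5 members holding most peaks, to the top 10 by -log10 q and by fold at 20 tags or more, and to set groups of relatives. No genome was used, so motifs were searched only in peaks inside promoter windows. Intervals are exact Clopper-Pearson 95% intervals and cover counting only. Alternatives were stricter q, fold and pileup thresholds, peaks of 1 gene, merging, reference bodies and other versions of the member list. A few neighbouring or related genes are not reported here.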

Additional observations from a re-analysis of the deposited data

How the results depend on the processing

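Against 29 overlapped members, there were 22 at a pileup of at least 20, 23 at a fold of at least 3 and 23 from peaks overlapping exactly 1 gene, but 17 at a -log10 q of at least 5 (of all protein-coding genes, 17.3% were overlapped at that pileup and 14.1% at that q) and 7 from peaks paired with exactly 1 gene. The 143 peaks became 56 at that q, 66 at a fold of at least 3 and 19 when paired with exactly 1 gene. Shares of all protein-coding genes were not computed for that fold or for the settings on peaks of 1 gene. The share of pairs in the last 10% was 79.8% at a pileup of at least 20 and 21.1% of the 19 peaks paired with 1 gene, which lie in 7 members. It was 75.9% in reference bodies, 66.0% after merging peaks within 100 bp and, added after seeing the data, 68% without Otud4, Usp37 and Usp2 and 73.6% within 5 kb of the 3' end. The median fold was 3.86 at the stricter q, 2.78 at a pileup of at least 20, 2.84 from peaks in 1 gene, 3.34 from peaks paired with 1 gene, 3.26 after merging, 3.11 without the pseudocount and 3.24 without those 3 genes. Other deubiquitinases, 16 as reported, numbered 6 when peaks paired with 1 gene were required and 11 to 16 under the other settings run. At a pileup of at least 20, 14 members kept their best fold, 8 had another and 7 had no peak left. The causes of these shifts were not tested. No paired analysis was possible because there is 1 sample per arm. The number of tags kept limits what can be seen: a gene with no row is not shown to be unbound.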
